A study of Homo sapiens with 4 samples.

Results

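Along band 4q13 of the human genome lies a run of genes for secreted proteins of milk, saliva and teeth. The 8 genes described here are SULT1E1, CSN1S1, CSN2, STATH, HTN3, HTN1 and ODAM from that run, together with FAM20C from chromosome 7, which encodes a kinase of the secretory pathway. They were picked by symbol from the 55765 genes of the count table, with their difference between retinoic acid and solvent already known, so their fold changes are a description and support nothing further. RNA had been sequenced from SK-N-BE(2)C, a human neuroblastoma line, grown for 144 h either with all-trans retinoic acid (ATRA) at 10 µM or with ethanol, the solvent. Both groups were the same line in the same serum-containing medium, and each had 2 libraries. The labels do not tell whether these were separate cultures, so p-values reflect only the spread between these libraries, which may be technical.

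The genes at 4q13 belong for the most part to the secretory calcium-binding phosphoprotein family, whose members arose by duplication and bind calcium or calcium phosphate outside the cell. Caseins carry calcium phosphate in milk, statherin keeps saliva from precipitating it, histatins are histidine-rich antifungal peptides of saliva, and ODAM is made by ameloblasts and by the epithelium attached to the tooth. FAM20C is the Golgi kinase that phosphorylates caseins and many other secreted proteins. None of the milk and saliva proteins is a typical product of the sympathetic nervous system, from which neuroblastoma arises.

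The stretches upstream of the histatin and statherin genes are shown because HTN3, HTN1 and STATH are close relatives. HTN3 and HTN1 both rose in the counts, whereas STATH had hardly any reads. They are the 250 bases before the RefSeq start on GRCh38.p14, plus strand, at chr4:70028209-70028458 for HTN3, chr4:70050188-70050437 for HTN1 and chr4:69995716-69995965 for STATH. In HTN3 and HTN1, capitals mark bases not matched between them, gaps and unaligned ends included. In STATH, capitals mark bases not matched to HTN3.
HTN3: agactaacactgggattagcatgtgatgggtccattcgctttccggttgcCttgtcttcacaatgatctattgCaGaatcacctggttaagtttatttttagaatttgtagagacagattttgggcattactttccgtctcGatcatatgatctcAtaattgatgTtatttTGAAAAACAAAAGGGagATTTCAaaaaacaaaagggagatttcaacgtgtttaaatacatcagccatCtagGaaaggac
HTN1: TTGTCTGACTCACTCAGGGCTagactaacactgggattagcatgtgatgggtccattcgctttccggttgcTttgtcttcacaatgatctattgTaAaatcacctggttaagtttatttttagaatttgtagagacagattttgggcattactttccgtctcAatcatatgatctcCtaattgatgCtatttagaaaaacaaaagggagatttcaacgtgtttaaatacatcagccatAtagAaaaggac
STATH: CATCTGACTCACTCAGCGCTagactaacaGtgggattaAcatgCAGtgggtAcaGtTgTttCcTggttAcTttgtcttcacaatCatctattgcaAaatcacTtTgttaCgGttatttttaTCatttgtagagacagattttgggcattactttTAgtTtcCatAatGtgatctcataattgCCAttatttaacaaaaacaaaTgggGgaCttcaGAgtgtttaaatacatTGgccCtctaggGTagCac
HTN3 and HTN1 were identical at 221 of 229 aligned bases (96.5%), with 21 bases in gaps. Shares of identical bases here leave out gaps and unaligned ends. HTN3 and STATH were identical at 189 of 230 (82.2%), and HTN1 and STATH at 201 of 249 (80.7%). The window before ODAM, the most abundant of these transcripts, is shown for contrast. It lies at chr4:70195475-70195724 on the plus strand. In ODAM, capitals would mark core motifs of retinoid receptor sites, described below, and not unmatched bases. No such motif lies in these 250 bases, so all letters are small.
ODAM: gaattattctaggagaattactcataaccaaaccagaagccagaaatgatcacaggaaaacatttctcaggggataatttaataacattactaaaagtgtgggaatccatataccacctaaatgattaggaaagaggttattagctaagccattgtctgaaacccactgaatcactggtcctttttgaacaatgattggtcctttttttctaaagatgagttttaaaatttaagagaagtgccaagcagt
ODAM matched HTN3 at 118 of 190 aligned bases (62.1%), with 48 bases in gaps. The share for unrelated windows was not computed, so no kinship is read from this value. GENCODE 29 places the start of ODAM further downstream than RefSeq, so this window may not be the promoter in use.

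Promoter windows of 300 bases, reaching 50 bases past the start, were searched on both strands for 4 core motifs of retinoid receptor sites. The core AGGTCA occurs in 13.9% of all promoter windows. The core AGTTCA occurs in 10.5%. The core GGGTCA occurs in 14.2%, and the core GGTTCA in 8.62%. All 8 genes had a window. A core was found for CSN1S1 (AGTTCA) and for ODAM (GGTTCA, past the start), that is for 2 of 8 against 38.7% of 27305 promoters. Direct repeats of these cores spaced by 1, 2 or 5 bases were found in 0 of 8, and in 0.132%, 0.0439% and 0.0806% of all promoters. TTCNNNGAA, the core of STAT5 sites known from casein genes, occurred for CSN1S1 and CSN2 and in 7.88% of all promoters. The window upstream of FAM20C had a GC content of 78.4%, against 30.4% to 40.8% for the 7 genes at 4q13. These are matches of letters in a short window only.

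Total counts lay between 12850462 and 19883465 reads per library. Libraries numbered 1 held more mitochondrial ribosomal RNA, 2.49% (ATRA) and 5.96% (ethanol) of reads, than those numbered 2, with 0.130% and 0.0291%. Its part in the results was not tested, and log2 differences within each number are given beside the fitted values. These use a prior count of 2 and so understate large folds. Levels are given as CPM, reads per 1000000 reads of a library after TMM scaling, as mean ± SD with n = 2.

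Of these genes, ODAM rose most in absolute level. It had 1785 reads in ATRA 1 and 592 in ATRA 2, against 17 and 12 reads in ethanol 1 and 2, which is 120.9, 35.4, 1.31 and 0.595 CPM. Both ATRA libraries were far above both ethanol libraries, but they were 3.41-fold apart from each other (95% exact counting interval 3.11 to 3.75). The mean went from 0.952 ± 0.505 to 78.2 ± 60.5 CPM, a log2 fold change of 6.40 ± 0.80 (SE; adjusted p 0.0410, edgeR quasi-likelihood), with differences of 6.40 and 5.63 within numbers 1 and 2. Without ATRA 1 the log2 fold change was 5.25, and without ATRA 2 it was 7.03. Among all 18900 genes tested, 0.545% passed the threshold of 0.05 as higher, 0.153% passed as lower, and 23.8% had both ATRA libraries above both ethanol libraries. Since ODAM was chosen for this contrast, nothing is read from its call. In bulk RNA, more cells of a type and more RNA per cell cannot be told apart.

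The histatin genes rose too. HTN3 had 202 and 231 reads with ATRA and 6 and 4 with ethanol. HTN1 had 207 and 124 reads with ATRA and 1 and 3 with ethanol. For either gene both ATRA libraries lay above both ethanol libraries, as they did for 23.8% of all genes tested. HTN3 went from 0.330 ± 0.186 to 13.8 ± 0.0964 CPM, a log2 fold change of 5.41 ± 0.58 (adjusted p 0.0381, edgeR quasi-likelihood), with 4.56 and 5.44 within numbers. Without ethanol 1 it was 6.02. HTN1 went from 0.113 ± 0.0507 to 10.7 ± 4.67 CPM, a log2 fold change of 6.41 ± 0.71 (adjusted p 0.0381, edgeR quasi-likelihood), with 6.14 and 4.79 within numbers. HTN3 was level between the ATRA libraries (ratio 0.990, counting interval 0.816 to 1.20), while HTN1 was 1.89-fold higher in ATRA 1 (1.51 to 2.38). The HTN1 to HTN3 read ratio was therefore 1.02 in ATRA 1 and 0.537 in ATRA 2.

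How far these counts can tell the histatin genes apart depends on read length and on how shared reads were counted, neither of which is given in the sources used here. Their best-matching GENCODE 29 transcripts, of 580 and 578 bases, were identical at 531 of 561 aligned bases (94.7%). Windows were pooled over all annotated transcripts of a gene, 6 for HTN3. Of its 2118 windows of 50 bases, 43 (2.03%) occurred exactly in HTN1 transcripts, and of the 75-base windows 0% did. The share along the best-matching transcripts alone was not computed, and it may be larger. HTN1 transcripts shared 91 of 3858 windows of 50 bases with other genes, 43 of them with HTN3. The values of HTN1 and HTN3 are given as uncertain for this reason. Transcripts of CSN1S1, CSN2, STATH, ODAM and FAM20C shared 0% of their 50-base windows with any other gene's transcripts.

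Statherin and casein genes next to the histatins had few reads or none. STATH, whose upstream sequence is shown above, had 1 read in each ATRA library and 0 in each ethanol library. Both groups are at or under 3 counts, so no fold is given. CSN2, the beta-casein gene, had 9 and 3 reads with ATRA and 0 and 0 with ethanol. Against a floor of 3 counts over the ethanol group, its level with ATRA was at least 4.21-fold higher when its 12 reads are taken as exact. With their counting error, the 95% exact interval of the ratio starts at 2.93. CSN1S1, the alpha-s1-casein gene, had 0 reads in all 4 libraries, which allows up to 0.0953 CPM with ATRA and 0.0904 CPM with ethanol. Limits and counting intervals here take in the error of counting alone, because PCR copies of a molecule were not marked.

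SULT1E1, the sulfotransferase that inactivates oestrogens, lies at the other end of the run. It had 20 and 8 reads with ATRA and 0 and 1 with ethanol. The ratio of group counts, scaled by library size, was 29.5, with a 95% exact counting interval of 4.88 to 1206. SULT1E1, CSN1S1, CSN2 and STATH did not pass the filter on low counts and have no place in the main test. With every gene of at least 1 count tested, SULT1E1 was at 4.58 ± 1.33 on the log2 scale (adjusted p 0.0162, edgeR quasi-likelihood), where 3.02% of 37299 genes were called higher. In that fit CSN2 was not called (adjusted p 0.116) and neither was STATH (adjusted p 0.826, edgeR quasi-likelihood). The same fit gave ODAM an adjusted p of 1.3e-38, against 0.0410 in the main test on the same libraries (both edgeR quasi-likelihood). Its p-values are therefore not comparable with those of the main test, and nothing is read from the call of SULT1E1. SULT1E1 transcripts shared 20.0% of their 50-base windows with 1 other gene, and in GENCODE 29 AC108941.2 overlaps SULT1E1 on the same strand over 6575 bases.

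FAM20C had 327 and 194 reads with ATRA and 3 and 1 with ethanol. Both ATRA libraries lay above both ethanol libraries, as they did for 23.8% of all genes tested. The level in ATRA 1 was 1.91-fold above that in ATRA 2 (counting interval 1.59 to 2.29). FAM20C went from 0.140 ± 0.128 to 16.9 ± 7.46 CPM, a log2 fold change of 6.98 ± 0.78 (adjusted p 0.0381, edgeR quasi-likelihood), with 5.97 and 6.08 within numbers. This is the 50th highest fold of the 18900 genes tested. The 4 ethanol reads set its size: without ethanol 1 the log2 fold change was 8.18 and without ethanol 2 it was 6.15. In GENCODE 29, AC093627.3 and AC145676.1 overlap FAM20C on the opposite strand over 1212 and 2004 bases. The library kit was directional, but the strand setting of the counting is not given in the sources used here, so reads of such partners cannot be told apart.

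**Figure D1:**
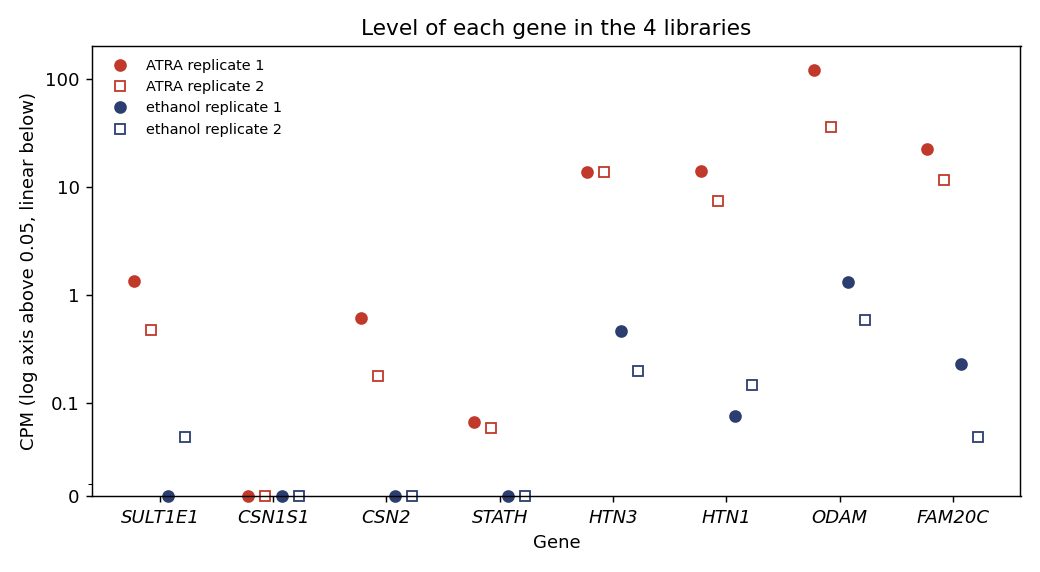
Level of each of the 8 genes in CPM, on an axis that is logarithmic above 0.05 and linear below, with ATRA libraries in red, ethanol libraries in blue, circles for replicate 1 and open squares for replicate 2. ODAM reached 120.9 CPM in ATRA 1 and 35.4 in ATRA 2, HTN3, HTN1 and FAM20C lay between 7.42 and 22.1 CPM with ATRA, and CSN1S1 stood at 0 throughout.

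Levels can be set against each other only per length. On CPM per kilobase of the principal GENCODE 29 transcript, ODAM stood at 91.7 and 26.8 in ATRA 1 and 2. HTN1 stood at 22.5 and 11.9, HTN3 at 17.7 and 17.8, and FAM20C at 8.05 and 4.22. ODAM was thus above the others in both libraries, HTN1 and HTN3 overlapped, and FAM20C was below both histatins. SULT1E1, at 0.761 and 0.269, overlapped CSN2, at 0.572 and 0.168. Over all annotated exons instead, which for HTN1 are 3817 bases against 623 in the principal transcript, HTN1 stood at 3.67 and 1.94 and FAM20C at 4.78 and 2.51. The order of HTN1 and FAM20C thus rests on the transcript assumed. ODAM made up 80.3% and 61.7% of the reads of the 7 genes at 4q13 in ATRA 1 and 2, out of 2224 and 959 reads.

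The difference between the ATRA libraries was uneven across the genes. ODAM differed by 1.77 on the log2 scale between them. Of all 18900 genes tested, 1037 were at least this far apart, with a median absolute difference of 0.46. Among the 103 genes called higher, a set that the test favours for small spread, 4 were, ODAM included. Of those 103 genes, 54 were higher in ATRA 1, so the set as a whole did not lean to one library. HTN1, FAM20C and SULT1E1 (ratio 2.83, counting interval 1.19 to 7.43) were also higher in ATRA 1, whereas HTN3 was not. For CSN2 the interval of the ratio, 0.848 to 19.5, includes no difference.

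**Figure D2:**
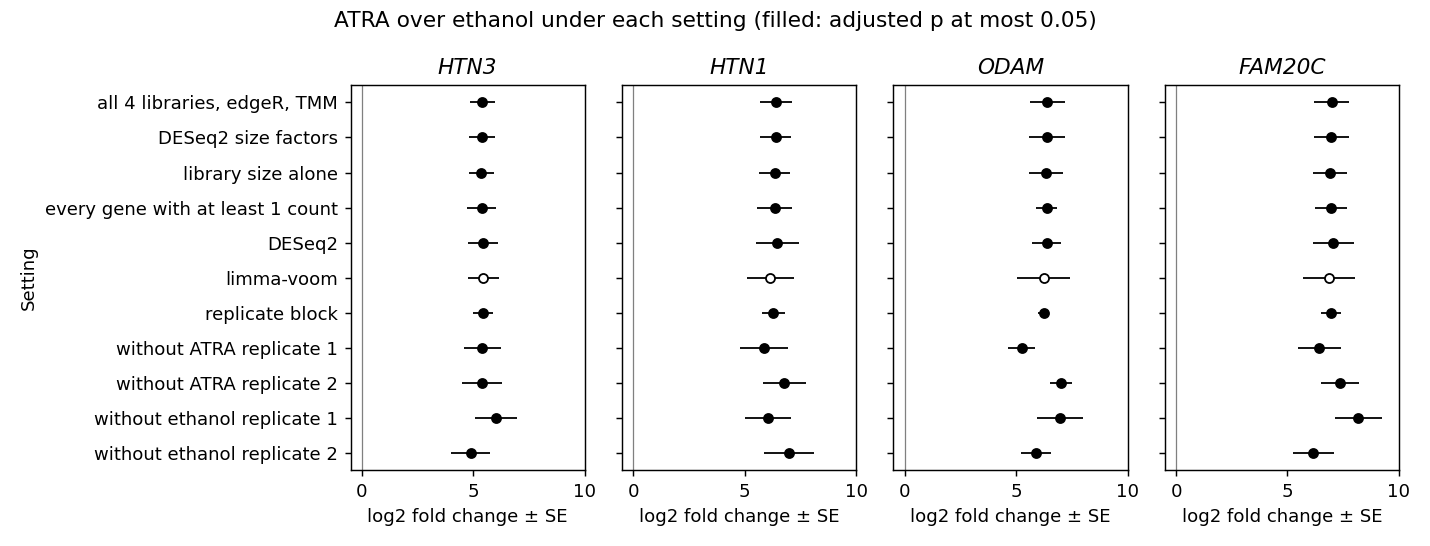
Log2 fold change of ATRA over ethanol, with its standard error, for HTN3, HTN1, ODAM and FAM20C under each setting, with filled points where the adjusted p was at most 0.05. All values lie between 4.89 and 8.18, and the 4 limma-voom points are open.

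Limma-voom ended the call of all 4 tested genes, with log2 fold changes of 5.44 to 6.87 and adjusted p between 0.0515 and 0.0873, in a test that called 0.228% of genes higher. DESeq2, which called 4.62% of genes higher and 2.62% lower, called all 4. So did edgeR with library size alone (0.492% higher) or DESeq2 size factors (0.561% higher). The fits without 1 library also called all 4, but there a group of 1 library is assumed to vary like the other group, so calls kept there say little about stability. In these fits 3.08% (without ATRA 1), 4.05% (without ATRA 2), 2.68% (without ethanol 1) and 3.98% (without ethanol 2) of genes were called higher.

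The rest of the 4q13 run had few reads or none, apart from its far end. Of the 37 genes listed there, 8 passed the filter, and 3 rose and 0 fell, these being ODAM, HTN3 and HTN1, against 0.698% of all genes called in either direction. The list's median log2 fold change of 0.79 includes these 3 genes, which were chosen for the contrast. Over the 5 other tested genes it was 0.03, against 0.01 over all genes tested. Among the 30 listed genes outside those described above, 19 had 0 reads in all libraries, and 23 had 4 reads or fewer in all. PRR27 and FDCSP, the coding genes on either side of ODAM in RefSeq order, had 0 reads in all libraries. So did CSN3, the kappa-casein gene, MUC7, a salivary mucin gene, and AMBN and ENAM, genes of enamel matrix. CSN1S2AP, a casein pseudogene between HTN1 and ODAM, had 2 and 0 reads with ATRA and 1 and 1 with ethanol. The broadly expressed genes beyond the secretory run were abundant in both groups, and 0 of the 5 tested passed (edgeR quasi-likelihood). UTP3, a ribosome biogenesis gene, was at 0.02 ± 0.27 on the log2 scale, GRSF1, an RNA-binding protein gene, at 0.03 ± 0.24, and DCK, the deoxycytidine kinase gene, at -0.46 ± 0.29. RUFY3, a gene of neuronal polarity, was at 1.30 ± 0.31 (adjusted p 0.124, edgeR quasi-likelihood). DESeq2, which called 7.25% of genes in either direction, also called RUFY3 higher.

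**Figure D3:**
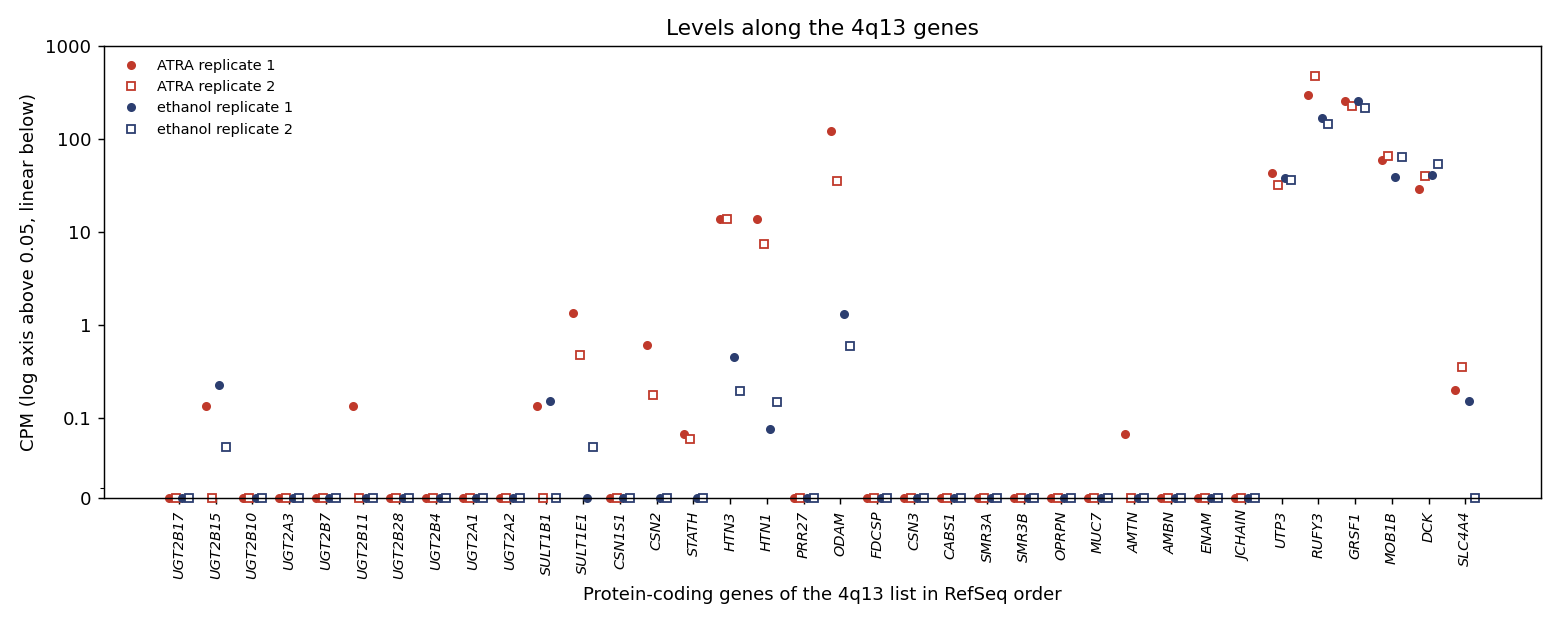
CPM of the protein-coding genes of the 4q13 list in RefSeq order, on an axis logarithmic above 0.05 and linear below, with ATRA libraries in red and ethanol libraries in blue. HTN3, HTN1 and ODAM stand above genes at or near 0, and from UTP3 to DCK both groups lie at higher levels, apart from each other at RUFY3.

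Around FAM20C on chromosome 7, 1 of 15 tested genes rose and 0 fell, FAM20C itself (edgeR quasi-likelihood). The list's median over its 14 other tested genes was 0.07. At an unadjusted p under 0.05, 3 genes of the list were higher and 1 lower, FAM20C included, against 15.9% of all genes tested in either direction. PDGFA, the growth factor gene next to it in the list, had 4 and 1 reads with ATRA and 0 and 2 with ethanol. MAFK, a small MAF transcription factor gene further along and named after its values were seen, had 77 and 44 reads with ATRA and 6 and 3 with ethanol. Its log2 value was 3.72 ± 0.81, with an adjusted p of 0.104 from edgeR, while DESeq2 called it higher.

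Of the secretory pathway kinases, FAM20C was the 1 of 10 tested that rose, and 0 fell. At an unadjusted p under 0.05, 2 genes were higher, FAM20C included, and 2 lower, against 15.9% of all genes tested. The median over the 9 others was 0.10. FAM20A, the pseudokinase that activates FAM20C, had 163 and 111 reads with ATRA and 120 and 96 with ethanol, a log2 value of 0.34 ± 0.50. FAM20B, a kinase acting on xylose in proteoglycan linkers, was at 0.16 ± 0.32. Chosen after their values were seen, DIPK1A was at 2.41 ± 0.45, PKDCC, a tyrosine kinase gene of the secretory pathway, at -1.06 ± 0.28 and DIPK2A at -1.97 ± 0.68 (adjusted p 0.0791, 0.147 and 0.237, edgeR quasi-likelihood). For DIPK1A both ATRA libraries lay above both ethanol libraries, as they did for 23.8% of all genes tested. For PKDCC and DIPK2A both lay below, and the share of all genes doing so was not computed. DESeq2 called DIPK1A, but neither of the others. Of 20 known FAM20C substrates 3 passed the filter, and 0 of these 3 were called by edgeR, 0 by DESeq2 and 0 at an unadjusted p under 0.05, where 15.9% of all genes tested lay. These were the endoplasmic reticulum proteins ERO1A at -0.38 ± 0.29, STIM1 at -0.05 ± 0.28 and P4HB at 0.02 ± 0.30. The substrate SPP1, osteopontin of bone, had 7 and 3 reads with ATRA and 0 and 0 with ethanol. DMP1, a dentin matrix gene, had 4 and 3 against 0 and 0.

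Genes for phosphoproteins and mineral regulators of bone, tooth and matrix outside 4q13 gave 0 calls among 8 tested (edgeR quasi-likelihood). With DESeq2, which called 4.62% of all genes higher, 1 was called higher, SPARC. At an unadjusted p under 0.05 there were 2 of 8, against 15.9% of all genes tested. Their median was 0.47. SPARC, a collagen-binding glycoprotein gene of the same wider family, had 1766 and 649 reads with ATRA and 119 and 426 with ethanol. Its log2 differences were 3.69 and 0.88 within numbers 1 and 2 (fitted 2.38 ± 0.64). MGP, an inhibitor of calcification, had 1959 and 311 reads with ATRA and 108 and 47 with ethanol (3.85 ± 1.06). Which genes of this list were called changed with the library left out. Such fits leave 1 library in a group, so nothing is read from those calls.

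Sulfotransferases and sulfate handling genes gave 0 calls among 11 tested (edgeR quasi-likelihood). With DESeq2, which called 4.62% of all genes higher, 1 was called higher, PAPSS1. At an unadjusted p under 0.05 there were 3 of 11, against 15.9% of all genes tested. Their median was 0.22. PAPSS1, which makes the sulfate donor that SULT1E1 uses, was at 1.09 ± 0.25 (adjusted p 0.111, edgeR quasi-likelihood). SULT1C4 was at 2.69 ± 0.88, on 14 and 47 reads with ATRA and 2 and 8 with ethanol. The oestrogen receptor genes ESR1 and ESR2 were at 0.04 ± 0.76 and -0.22 ± 0.56. Of 12 tested regulators of casein transcription 0 were called (edgeR quasi-likelihood), and 2 had an unadjusted p under 0.05, against 15.9% of all genes tested. DESeq2 called 1 of them higher, NFIB, against 4.62% of all genes. The median was 0.31. CEBPB, a bZIP factor of mammary epithelium, was at -1.08 ± 0.30 and NFIB, a nuclear factor I gene, at 1.06 ± 0.29. PRLR, the prolactin receptor gene, had 1 and 1 reads with ATRA and 0 and 1 with ethanol.

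**Figure D4:**
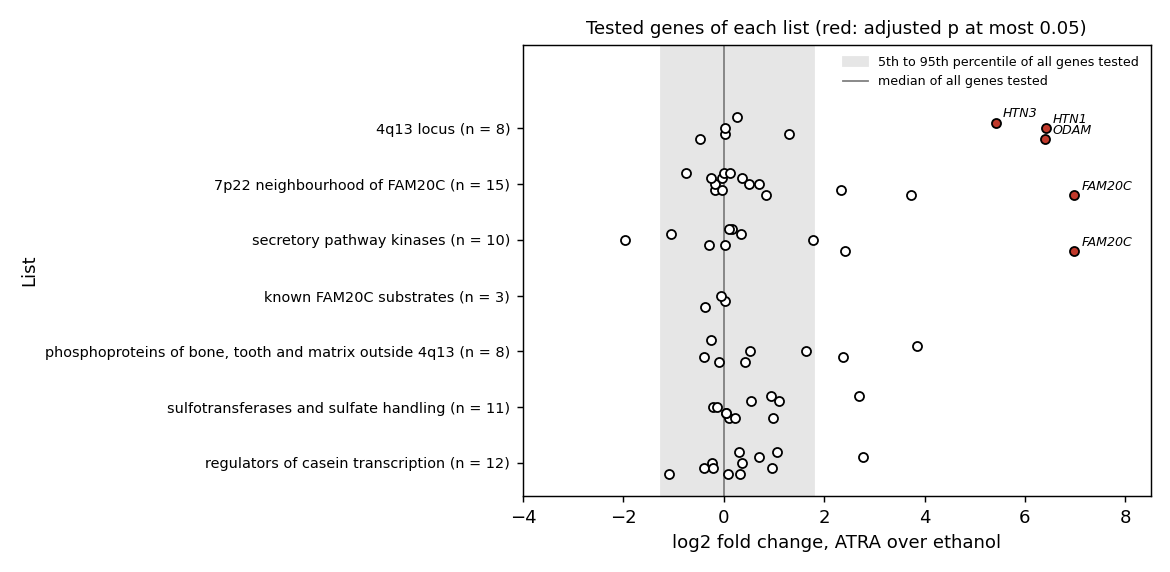
Log2 fold change of every tested gene in each of 7 gene lists, marker lists left out, with red points where the adjusted p was at most 0.05, over a grey band from the 5th to the 95th percentile of all genes tested (-1.25 to 1.80). HTN3, HTN1, ODAM and FAM20C are the red points, and FAM20C appears in both lists that hold it.

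Markers of the cell types that normally make these proteins were at or near 0 in most cases. Of the 6 ameloblast markers 0 passed the filter, and AMBN, ENAM and MMP20 had 0 reads. Their summed level was 0.120 to 0.610 CPM with ATRA and 0.248 to 0.385 with ethanol. Of the 10 salivary markers 3 passed, with a summed level of 11.4 to 15.9 CPM with ATRA and 15.2 to 17.6 with ethanol, most of it PRR4. AQP5 had 8 and 26 reads with ATRA and 27 and 65 with ethanol, a log2 value of -1.33 ± 0.71, not called. Of the 3 tested, 0 were above 0 on the log2 scale. MUC7 had 0 reads, and the amylase gene AMY1A had 0 with ATRA and 1 with ethanol. Of the 7 mammary markers 1 passed, KRT19, and the milk protein genes LALBA, CSN3 and LTF and the keratin gene KRT5 had 0 reads. Their summed level was 4.34 to 9.51 CPM with ATRA and 4.46 to 4.93 with ethanol. Hepatocyte markers, 0 of 4 tested, summed to at most 0.385 CPM in any library. Osteoblast and odontoblast markers, 3 of 8 tested, summed to between 3.32 and 3.85 CPM in all libraries. Of the few genes tested in these 5 marker lists, 0 were called by edgeR or DESeq2, and 0 had an unadjusted p under 0.05, against 15.9% of all genes tested.

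Of the 4 general epithelial markers, 3 were tested and 0 passed. KRT8 and KRT18, keratins of simple epithelium, were at 2.92 ± 0.70 and 4.70 ± 0.70 on the log2 scale (adjusted p 0.123 and 0.0533, edgeR quasi-likelihood). DESeq2, which called 4.62% of all genes higher, called both higher. EPCAM, an epithelial adhesion molecule gene, was at 0.39 ± 0.60. All 4 markers together summed to 8.06 and 12.1 CPM with ATRA and 1.92 and 2.03 with ethanol. Only 1 read of the epithelial cadherin gene CDH1 was counted in the 4 libraries, in ethanol 2. The part of epithelial cells in the rise of ODAM and the histatins was not tested. All 10 sympathoadrenal markers, which define the labelled cell type, passed the filter. Of these GATA3 and CHGA fell, and the transcription factor genes PHOX2A and HAND2 lay at 165 CPM or more in each library. The 10 markers summed to 2856 and 3619 CPM with ATRA and 5594 and 7433 with ethanol.

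Closeness of pattern was measured as the Euclidean distance of log2 CPM, centred on each gene's mean, over the 4 libraries and 13263 other protein-coding genes. It is dominated by the size of the treatment difference. The genes nearest to ODAM were FAM20C (0.60), PRSS23 (0.67), SEL1L3 (0.94), LRRC17 (0.96) and ITGA3 (1.02), an integrin gene. Those nearest to FAM20C were SEL1L3 (0.44), ODAM (0.60), ITGA3 (0.72), DKK2 (0.76), which encodes a Wnt modulator, and MYPN (0.83), which encodes a sarcomere protein. The histatins were further from ODAM, HTN1 at 1.31 and HTN3 at 1.62. PRSS23, a serine protease gene, had 370 and 92 reads with ATRA and 4 and 1 with ethanol, and so shared the gap between the ATRA libraries that ODAM showed.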

How the data were processed

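RNA-seq was analysed from 4 libraries, 2 with ATRA and 2 with ethanol. The values deposited by the authors are raw counts, 1 row per symbol. Build hg19, STAR 2.5.2b and featureCounts 1.5.1 are named, per the submitters' processing notes. Sources used here do not give the annotation, strand setting or treatment of shared reads. Genes and lists were chosen with earlier results of these data known. All 157 listed genes were matched, 12 by an older symbol.

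One edgeR model (version 4.0.16, R 4.3.3) covered the whole table (TMM scaling, filterByExpr with a minimum count of 10, robust quasi-likelihood F test, treatment as the sole term, 2 residual degrees of freedom). Benjamini-Hochberg adjustment covered 18900 genes, two-sided, threshold 0.05. DESeq2 1.42.0 and limma 3.58.1 (voom) were alternatives. Standard errors are the log2 fold change over the square root of F. Counts simulated from the mean levels and spread of this table, without a replicate-number effect, served to check the code only. Named are the 8 genes, list genes called (up to 4 per direction, otherwise the 2 with the smallest p), neighbours of ODAM and FAM20C, and the 5 genes closest in pattern; other genes are given for their role or were chosen after their values were seen. Sequences came from RefSeq (GRCh38.p14) and GENCODE 29 and were aligned with Biopython 1.88. The counts are on another build, so gene order and sequence alone were taken from these.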

Additional observations from a re-analysis of the deposited data

How the results depend on the processing

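Totals of genes called moved with the test. Against 132 genes, 1821 were called with all genes of 1 count or more, 1370 with DESeq2 and 50 with limma-voom, and between 870 and 1442 without 1 library. At 4q13, 5 genes were called with all genes of 1 count or more, with RUFY3 and SULT1E1 added, and 0 with limma-voom (4 of 8 at an unadjusted p under 0.05, against 3005 of 18900 genes tested, and 4 called by DESeq2). Without 1 library the count was between 3 and 4. Limma-voom gave HTN3 5.44, HTN1 6.14, ODAM 6.24 and FAM20C 6.87 on the log2 scale, none past the threshold; the cause was not tested. Of 40 values of these genes under alternatives, 36 kept direction and call, 4 lost the call and 0 reversed. Part of the 36 came from fits without 1 library, where the spread comes from the other group alone. These genes were chosen for this contrast, with few ethanol reads against many with ATRA. A reversal was therefore hardly possible, and the tally says little about stability. With the replicate number as a block, 4098 genes were called, and 12.3% of 18900 genes were called higher, against 0.545% in the main fit. The 4 called at 4q13 were HTN1, HTN3, ODAM and RUFY3. HTN3, HTN1, ODAM and FAM20C kept their calls, in a fit that called a far larger share of all genes. Same-numbered libraries deviated together (correlation 0.632 across 18900 genes, which are not independent), but the labels do not say that numbers mark a shared batch. With 2 libraries per group and at most 10 ethanol reads for HTN3, HTN1 and FAM20C, the size of these folds is limited by the few control reads.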
